A study of Mus musculus with 12 samples.

Results

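Genes of prostaglandin and leukotriene synthesis and sensing were followed in mouse bone marrow-derived macrophages (BMDM) given a Toll-like receptor 4 ligand, the defensin hBD3, or both. The set held 10 members: Pla2g4a, Ptgs1, Ptgs2, Ptges, Tbxas1, Alox5, Alox5ap, Ltc4s, Ptger2 and Ptger4. They were read from array probes annotated to one of these symbols alone, and each gene was represented by its probe with the highest mean signal over all arrays. Of the 10 members, 9 had such a probe, with 19 probes between them, out of 19057 genes and 45281 probes on the array. Ptgs1, which encodes the constitutive cyclooxygenase, was named by none of the annotated probes used and was not analysed here.

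RNA was taken after 6 h from Balb/c BMDM, which had been grown from marrow in 20 ng/ml macrophage colony stimulating factor (M-CSF) and then kept overnight without it, and was hybridised to 12 Illumina MouseWG-6 BeadChip arrays. The 4 groups of 3 arrays were cells given Kdo2-lipid A plus human beta-defensin 3 (KLA plus hBD3), cells given 50 ng/ml KLA alone, cells given hBD3 alone, and untreated cells. KLA is the lipid A core of lipopolysaccharide with its sugars and is a ligand of Toll-like receptor 4, while hBD3 is a cationic antimicrobial peptide of human epithelia. The labels put hBD3 at 5 mg/ml, where the methods of the study use micrograms per ml, and carry no dose for KLA plus hBD3. The series describes 3 biological replicates per group. Each p-value and SE rests on the spread between replicates, pooled over the 4 groups and moderated by that of all probes. An SE can therefore understate the spread of a group that varies more than the others. In KLA replicates 2 and 3 the title has HBD3 added to KLA, although the treatment label is KLA, and values without them are given in the closing section.

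Arachidonic acid is cut from membrane phospholipids by phospholipases, chiefly the cytosolic enzyme encoded by Pla2g4a. Cyclooxygenases turn it into prostaglandin H2, from which dedicated synthases make prostaglandin E2 and thromboxane A2, while 5-lipoxygenase and its activating protein turn it into leukotriene A4, the parent of the cysteinyl leukotrienes. In macrophages activated through Toll-like receptor 4, prostaglandin E2 made by the inducible cyclooxygenase is a well known product, and it acts back on the cells through its EP2 and EP4 receptors.

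At 6 h, KLA raised the inducible prostaglandin E2 genes Ptgs2 and Ptges and lowered Alox5, Alox5ap and Tbxas1. With hBD3 added to KLA, the means of all 5 of these genes lay between the KLA and the untreated level. By the brightest probes only Ptges was called against untreated cells. Against KLA alone, Ptgs2 and Ptges were lower and Alox5, Alox5ap and Tbxas1 were higher. Both probes of Ptges and of Alox5ap made these calls, while for Ptgs2, Alox5 and Tbxas1 only the brightest probe did. For hBD3 alone no measured member passed the test, and Ltc4s, Ptger2, Ptger4 and Pla2g4a were not called in any comparison.

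In counts, KLA against untreated called 2 of the 9 measured members higher and 3 lower (limma, Benjamini-Hochberg adjusted p under 0.05), where 9.70% of the 19057 genes, each read from its brightest probe, were called higher and 11.6% lower. KLA plus hBD3 against untreated called 1 member higher and 0 lower, with 3.11% of genes higher and 3.44% lower. KLA plus hBD3 against KLA called 3 members higher and 2 lower, with 5.85% of genes higher and 4.97% lower. The interaction (what hBD3 did in the presence of KLA, minus what it did on its own) called 2 members higher and 2 lower, with 2.81% of genes higher and 2.69% lower. For hBD3 against untreated limma called 0 members, while 0.00525% of genes were called in either direction. At an unadjusted p under 0.05 were 0 members, beside 1842 of the 19057 genes. With the replicate number as a block the hBD3 comparison still called 0 members, and 15 probes in place of 2. The median log2 change over the 9 members was -0.079 for KLA, -0.065 for KLA plus hBD3 against untreated, 0.0485 for KLA plus hBD3 against KLA and 0.045 for hBD3. Over the 19057 genes with a probe these medians were 0.016, 0.0078, -0.0041 and 0.013, in the same order. The shared KLA and untreated arrays tie these comparisons to each other.

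Detection meant a p-value under 0.01 against negative control beads. By that limit 7 of the 9 members were detected in every array of some group, and the probes of Pla2g4a and Ptger4 were not. Of 8271 genes so detected, KLA called 20.6% higher and 25.6% lower, beside 28.6% and 42.9% of the 7 members. KLA plus hBD3 against KLA called 13.5% of these genes higher and 11.1% lower, beside 42.9% and 28.6% of the 7. Ptgs2 met this limit through the KLA arrays alone. The lowest detected log2 signal was 6.10 to 6.32 in KLA plus hBD3 arrays and 6.19 to 6.34 in KLA arrays. It was 6.07 to 6.12 in hBD3 arrays and 6.03 to 6.10 in untreated arrays. Detection counts of dim genes thus also reflect a limit that tended to be higher in arrays with KLA. An array detected from 12363 to 15629 probes, with the lowest number under KLA, and arrays of one group correlated at r of 0.969 to 0.993 over all probes. The macrophage markers fitted the label, with 13 of 13 measured genes detected in every array. Their mean log2 signal spanned 10.64 to 10.90 in KLA plus hBD3 arrays, 10.01 to 10.30 in KLA arrays, 10.73 to 10.99 in hBD3 arrays and 10.63 to 10.93 in untreated arrays. The mean over the macrophage markers was thus lowest in the KLA arrays, as were Alox5, Alox5ap and Tbxas1. The part of this marker shift in those results was not tested. In bulk RNA, fewer cells of a type and less RNA per cell cannot be told apart.

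**Figure D1:**
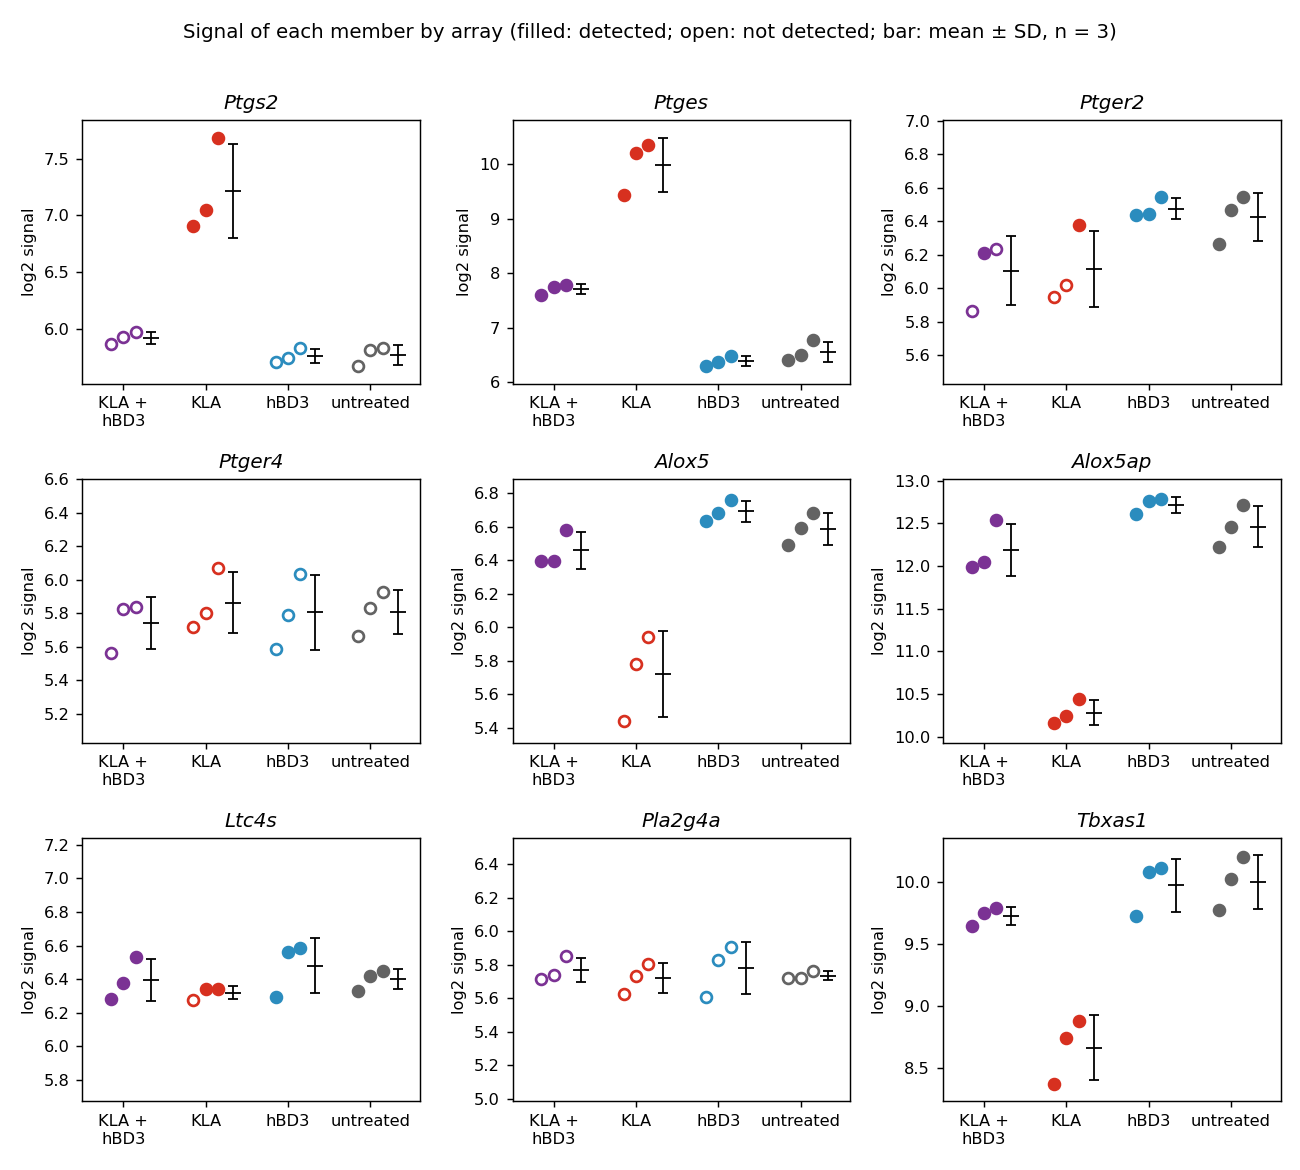
Normalized log2 signal (vertical axes, each with its own range) of the 9 measured members in the 4 groups, each from its brightest probe, with one point per array and a bar at the mean ± SD (n = 3). Filled points were detected and open points were not. In the KLA arrays Ptgs2 and Ptges lay above every other array and Alox5, Alox5ap and Tbxas1 below every other array.

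Pla2g4a encodes cytosolic phospholipase A2 alpha, which supplies arachidonic acid to both branches. Its probe gave log2 signals of 5.74, 5.72 and 5.85 in KLA plus hBD3 arrays, against 5.73, 5.63 and 5.80 in KLA arrays, 5.61, 5.91 and 5.83 in hBD3 arrays and 5.72, 5.76 and 5.72 in untreated arrays. All groups overlapped and no array detected it, so no fold is given. The log2 change for KLA against untreated was -0.015 ± 0.085 (SE, n = 3 each, limma adjusted p = 0.953), with a 95% interval of -0.20 to 0.17. For KLA plus hBD3 against KLA the interval was -0.14 to 0.23.

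Ptgs2 encodes cyclooxygenase-2, the inducible enzyme that makes prostaglandin H2. Its log2 signal was 5.93, 5.98 and 5.87 in KLA plus hBD3 arrays, against 7.05, 6.91 and 7.68 in KLA arrays, 5.71, 5.74 and 5.83 in hBD3 arrays and 5.68, 5.82 and 5.83 in untreated arrays. It was detected in all 3 KLA arrays and in no array of another group. KLA raised Ptgs2 by 1.44 ± 0.15 on the log2 scale over untreated cells (SE, n = 3 each, limma adjusted p = 3.88e-05). Since no untreated array detected Ptgs2, the rise is given as at least 2.2-fold, a bound set by the lowest signal of a detected probe in each untreated array. KLA plus hBD3 was lower than KLA by a log2 change of -1.29 ± 0.15 (adjusted p = 0.000271), at least 2.03-fold. KLA plus hBD3 and untreated cells differed by 0.15 ± 0.15 (adjusted p = 0.738), with neither detected. The SE pools the groups, while the SD of Ptgs2 was 0.41 in KLA, 0.05 in KLA plus hBD3, 0.06 in hBD3 and 0.09 in untreated arrays. Among the KLA arrays, replicate 3 was the highest, and without it the KLA change was 1.21 (adjusted p = 2.14e-06).

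The interaction of hBD3 and KLA for Ptgs2 was -1.28 ± 0.22 (limma adjusted p = 0.00723). With hBD3 alone the log2 change was -0.011 ± 0.15, with a 95% interval of -0.35 to 0.33. The second Ptgs2 probe behaved otherwise. It was detected in none of the arrays, and its mean log2 signal was 5.54 ± 0.03 in KLA plus hBD3, 5.59 ± 0.03 in KLA, 5.68 ± 0.07 in hBD3 and 5.55 ± 0.03 in untreated arrays (SD, n = 3 each). Both probes carry the same transcript accession in the annotation, so the Ptgs2 result rests on the brighter one.

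Ptges encodes microsomal prostaglandin E synthase 1, the inducible enzyme that acts after cyclooxygenase-2. Its log2 signal was 7.79, 7.76 and 7.60 in KLA plus hBD3 arrays, against 10.21, 10.35 and 9.43 in KLA arrays, 6.49, 6.38 and 6.30 in hBD3 arrays and 6.50, 6.42 and 6.77 in untreated arrays. Every array detected it. The KLA plus hBD3 arrays formed a middle tier that overlapped neither KLA nor untreated arrays, while the hBD3 and untreated arrays overlapped. KLA raised Ptges by 3.43 ± 0.19 on the log2 scale (SE, n = 3 each, limma adjusted p = 2.62e-07), which was 10.8-fold. KLA plus hBD3 was 4.86-fold lower than KLA, a log2 change of -2.28 ± 0.19 (adjusted p = 2.35e-05).

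Ptges was the 1 member still called in KLA plus hBD3 against untreated cells, 2.22-fold higher, with a log2 change of 1.15 ± 0.19 (limma adjusted p = 0.00544). That call was lost when arrays were centred on their medians in place of quantile normalization, where the change was 0.65 (adjusted p = 0.0700). The interaction was -2.11 ± 0.27 (adjusted p = 0.00131), and hBD3 alone gave -0.18 ± 0.19, with a 95% interval of -0.59 to 0.24. Ptges group means were 7.72 ± 0.10 with KLA plus hBD3, 10.00 ± 0.49 with KLA, 6.39 ± 0.09 with hBD3 and 6.56 ± 0.18 in untreated cells (SD, n = 3 each). KLA stood highest and KLA plus hBD3 next, and hBD3 and untreated cells did not differ beyond their spread. The second Ptges probe made the same calls, with log2 changes of 2.86 for KLA, 0.91 for KLA plus hBD3 against untreated (adjusted p = 0.0164) and -1.95 for KLA plus hBD3 against KLA.

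Tbxas1 encodes thromboxane A synthase, which converts prostaglandin H2 to thromboxane A2. Its log2 signal was 9.65, 9.75 and 9.79 in KLA plus hBD3 arrays, against 8.88, 8.74 and 8.38 in KLA arrays, 10.08, 10.11 and 9.72 in hBD3 arrays and 10.02, 10.20 and 9.77 in untreated arrays. The KLA arrays lay below all others, and the other groups overlapped. KLA lowered Tbxas1 2.52-fold, a log2 change of -1.33 ± 0.15 (SE, n = 3 each, limma adjusted p = 5.06e-05). KLA plus hBD3 was 2.09-fold above KLA, by 1.06 ± 0.15 (adjusted p = 0.000776), and was not called against untreated cells at -0.27 ± 0.15 (adjusted p = 0.435). The last of these was called lower when arrays were centred on their medians (-0.90, adjusted p = 0.0201) and without the replicate 3 arrays of KLA, hBD3 and untreated (-0.38, adjusted p = 0.0313).

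The Tbxas1 interaction was 1.09 ± 0.21 (limma adjusted p = 0.0138). It was not called with the KLA group cut to replicate 1 (0.88, adjusted p = 0.0915) or for the mean of all Tbxas1 probes (0.25, adjusted p = 0.322). Of its other 3 probes, one was also lower with KLA (-0.96, adjusted p = 0.00427) but was not called in KLA plus hBD3 against KLA (0.30, adjusted p = 0.575). That probe averaged 7.26 ± 0.07 in KLA plus hBD3, 6.96 ± 0.27 in KLA, 8.30 ± 0.39 in hBD3 and 7.92 ± 0.27 in untreated arrays (SD, n = 3 each). Its interaction was -0.082 (adjusted p = 0.955). A further probe gave -0.37 for KLA (adjusted p = 0.144), 0.30 for KLA plus hBD3 against KLA (adjusted p = 0.367) and 0.056 for the interaction (adjusted p = 0.962). The last was undetected in every array. The size of the KLA response of Tbxas1 therefore differed by probe. Only the brightest Tbxas1 probe was called in KLA plus hBD3 against KLA and in the interaction. Tbxas1 is also a platelet gene, and of 6 measured platelet and megakaryocyte markers 0 were detected in all arrays of KLA plus hBD3 and of KLA, and 1 in hBD3 and in untreated cells.

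Alox5 encodes 5-lipoxygenase, the first enzyme of the leukotriene branch. Its log2 signal was 6.39, 6.40 and 6.58 in KLA plus hBD3 arrays, against 5.78, 5.94 and 5.44 in KLA arrays, 6.68, 6.76 and 6.64 in hBD3 arrays and 6.49, 6.68 and 6.59 in untreated arrays. It was detected in no KLA array and in every other array. Alox5 was lower with KLA by a log2 change of -0.87 ± 0.12 (SE, n = 3 each, limma adjusted p = 0.000218), at least 1.25-fold. KLA plus hBD3 was above KLA by 0.74 ± 0.12 (adjusted p = 0.00173), at least 1.15-fold. Against untreated cells KLA plus hBD3 gave -0.13 ± 0.12 (adjusted p = 0.684), with overlapping arrays, and was called lower with median centring (-0.46, adjusted p = 0.0352).

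The Alox5 interaction, 0.63 ± 0.16, missed the threshold (limma adjusted p = 0.0616), and passed it under 4 of 20 alternatives given in the closing section, among them the replicate number as a block (0.63, adjusted p = 0.0459). The other 2 Alox5 probes were not called, with log2 changes for KLA of -0.27 (adjusted p = 0.132) and -0.21 (adjusted p = 0.371). Neither was detected throughout any group.

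Alox5ap encodes the 5-lipoxygenase activating protein, also called FLAP, which presents arachidonic acid to the enzyme. Its log2 signal was 11.99, 12.05 and 12.54 in KLA plus hBD3 arrays, against 10.44, 10.24 and 10.16 in KLA arrays, 12.76, 12.79 and 12.61 in hBD3 arrays and 12.71, 12.22 and 12.45 in untreated arrays. The KLA arrays were the lowest by a clear gap, and KLA plus hBD3 overlapped untreated. KLA lowered Alox5ap 4.54-fold, a log2 change of -2.18 ± 0.15 (SE, n = 3 each, limma adjusted p = 1.36e-06). KLA plus hBD3 was 3.76-fold above KLA, by 1.91 ± 0.15 (adjusted p = 1.67e-05). The interaction was 1.65 ± 0.22 (adjusted p = 0.00146).

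Against untreated cells, KLA plus hBD3 gave an Alox5ap change of -0.27 ± 0.15 (limma adjusted p = 0.454), with a 95% interval of -0.61 to 0.064. The second Alox5ap probe gave -2.06 for KLA (adjusted p = 2.23e-08) and 1.71 for KLA plus hBD3 against KLA. It differed in one call, being lower in KLA plus hBD3 than in untreated cells by -0.35 (adjusted p = 0.0245). With hBD3 alone the brightest Alox5ap probe changed by 0.26 ± 0.15 (adjusted p = 0.773), with a 95% interval of -0.079 to 0.59. The second probe also changed by 0.26 (adjusted p = 0.454), with an interval of 0.086 to 0.42 and every hBD3 array above every untreated array.

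Ltc4s encodes leukotriene C4 synthase, which conjugates leukotriene A4 to glutathione. Its log2 signal was 6.53, 6.37 and 6.28 in KLA plus hBD3 arrays, against 6.34, 6.34 and 6.27 in KLA arrays, 6.56, 6.29 and 6.58 in hBD3 arrays and 6.42, 6.33 and 6.45 in untreated arrays. All groups overlapped, and 1 KLA array did not detect it. The log2 change was -0.079 ± 0.091 for KLA (SE, n = 3 each, limma adjusted p = 0.699), with a 95% interval of -0.28 to 0.12. KLA plus hBD3 against KLA gave 0.077 ± 0.091, with an interval of -0.12 to 0.28. With median centring the KLA change of Ltc4s was -0.43 and was called (adjusted p = 0.00932). Alox5 and Ltc4s are also genes of mast cells and eosinophils. Of 11 mast cell and basophil markers 0 were detected in all arrays of any treated group and 1 in untreated cells, and of 5 eosinophil markers 0 were detected in any group.

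Ptger2 and Ptger4 encode the EP2 and EP4 receptors, through which prostaglandin E2 raises cyclic AMP. Ptger2 log2 signal was 5.87, 6.23 and 6.21 in KLA plus hBD3 arrays, against 6.02, 5.95 and 6.38 in KLA arrays, 6.44, 6.55 and 6.44 in hBD3 arrays and 6.27, 6.47 and 6.54 in untreated arrays. It was detected in 1 array each of KLA plus hBD3 and KLA, and in every hBD3 and untreated array. These signals lie near the detection limit, as the KLA plus hBD3 array at 6.23 was undetected and the untreated array at 6.27 detected. The log2 change was -0.31 ± 0.13 for KLA (SE, n = 3 each, limma adjusted p = 0.157) and -0.32 ± 0.13 for KLA plus hBD3 against untreated (adjusted p = 0.237). In the second of these comparisons all KLA plus hBD3 arrays lay below all untreated arrays, but neither passed the threshold. The KLA change was called without KLA replicate 3, at -0.44 (adjusted p = 0.0275), and median centring called both, at -0.60 (adjusted p = 0.00207) and -0.56 (adjusted p = 0.00681). The other Ptger2 probe was undetected throughout.

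Ptger4 log2 signal was 5.56, 5.83 and 5.84 in KLA plus hBD3 arrays, against 6.07, 5.72 and 5.80 in KLA arrays, 5.59, 5.79 and 6.04 in hBD3 arrays and 5.66, 5.93 and 5.83 in untreated arrays. No array detected either Ptger4 probe, and all groups overlapped. A looser detection limit of 0.05 added 1 KLA array and 1 hBD3 array. For KLA the log2 change was 0.056 ± 0.13 (SE, n = 3 each, limma adjusted p = 0.872).

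**Figure D2:**
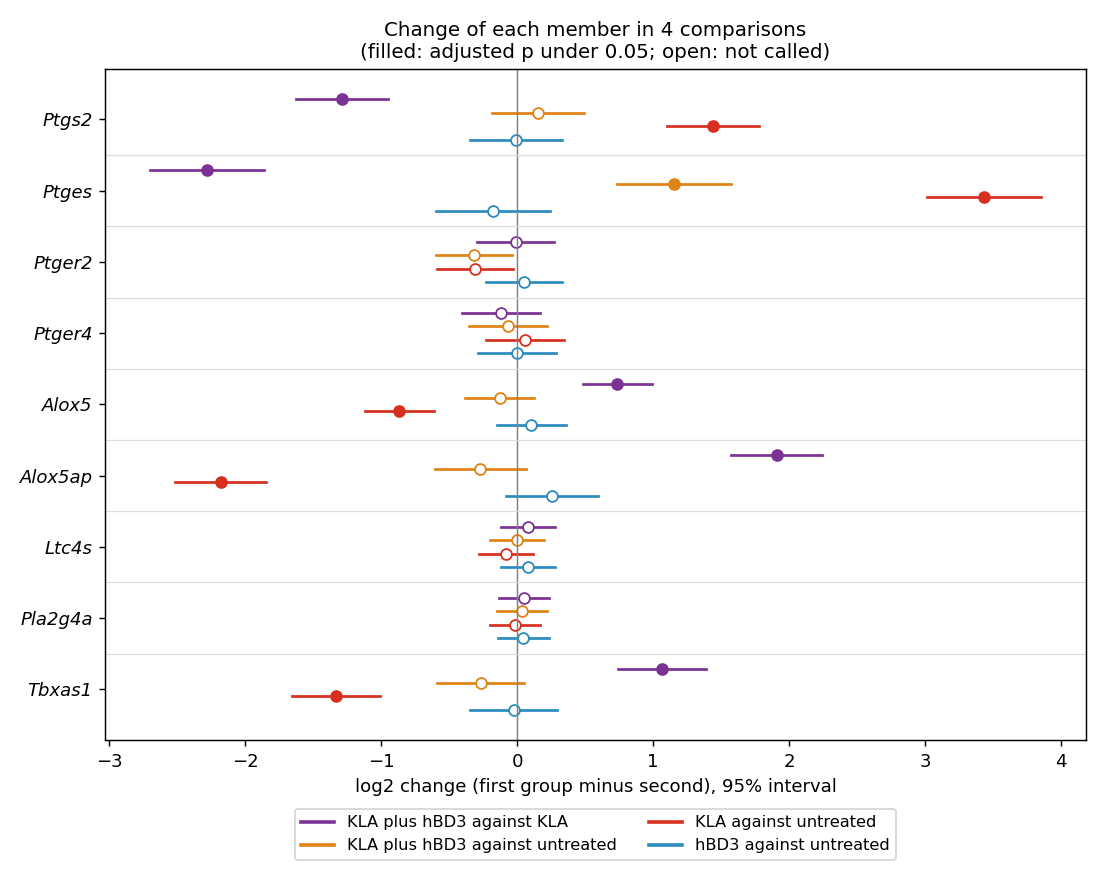
Log2 change (horizontal axis, first group minus second) of the 9 measured members in 4 comparisons, with the 95% interval as a line. Filled points passed an adjusted p of 0.05. KLA against untreated and KLA plus hBD3 against KLA lie on opposite sides of 0 for Ptgs2, Ptges, Alox5, Alox5ap and Tbxas1, while the hBD3 intervals of all members include 0.

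**Figure D3:**
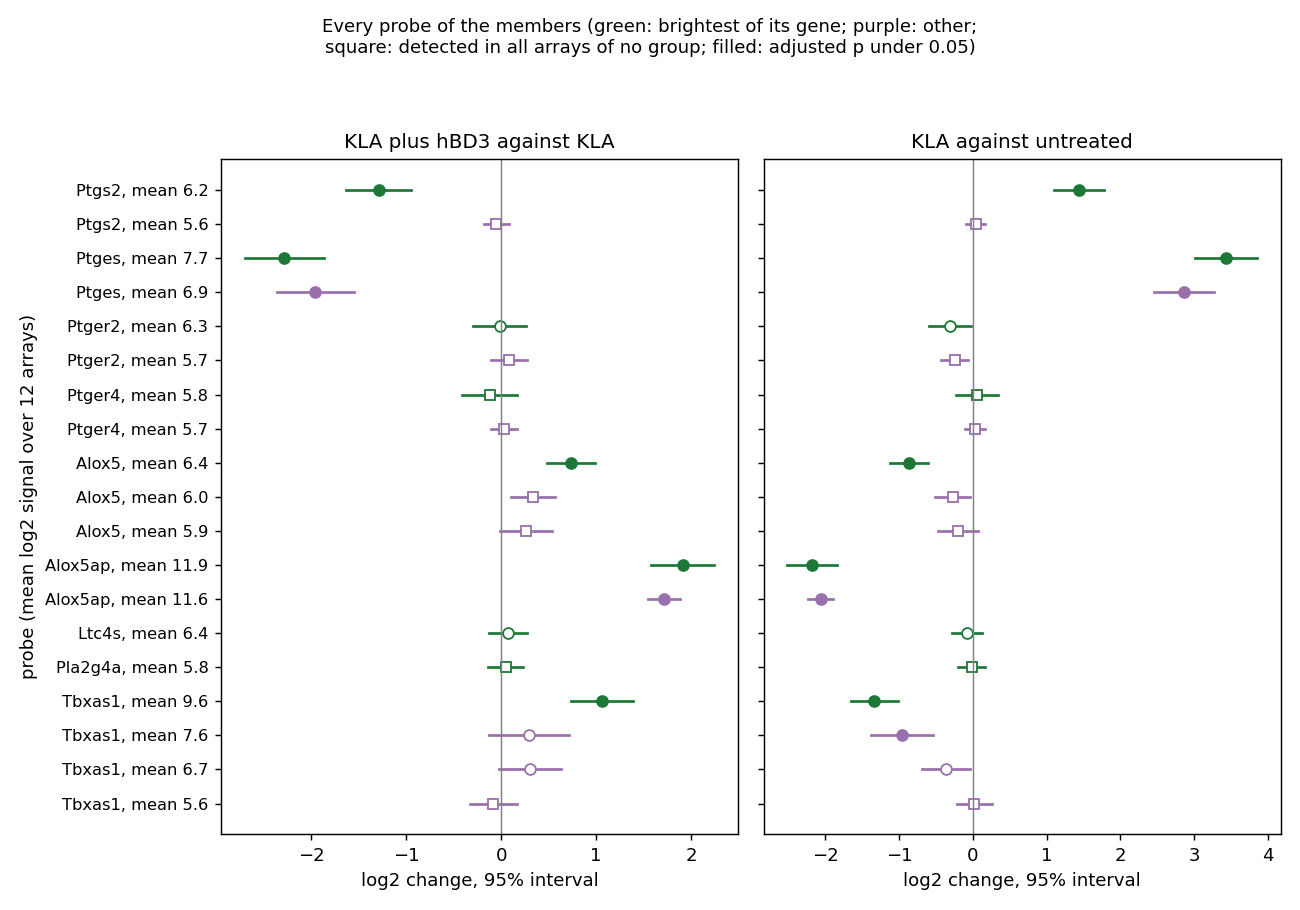
Log2 change with its 95% interval (horizontal axes) for each of the 19 probes of the members in 2 comparisons, one row per probe with its mean log2 signal. Green marks the brightest probe of a gene, squares mark probes detected in all arrays of no group, and filled points passed an adjusted p of 0.05. Both probes of Ptges and of Alox5ap moved together, whereas the dimmer probes of Ptgs2 and Alox5 were not called. In KLA plus hBD3 against KLA only the brightest Tbxas1 probe was called.

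The 250 bases before the annotated start are shown for Ptgs2 and Ptges, which rose with KLA, and for Tbxas1 and Alox5, which fell. They come from RefSeq on GRCm38.p6 and run 5′ to 3′ on the strand of the gene. The Ptgs2 stretch is chr1:150099781-150100030 on the plus strand, and that of Ptges is chr2:30903298-30903547 on the minus strand. The Tbxas1 stretch is chr6:38918736-38918985 on the plus strand, and that of Alox5 is chr6:116461179-116461428 on the minus strand. Those of Ptges and Tbxas1 lie inside the annotated gene span, before the start of a shorter transcript. Capitals mark matches to the searched motifs.
Ptgs2: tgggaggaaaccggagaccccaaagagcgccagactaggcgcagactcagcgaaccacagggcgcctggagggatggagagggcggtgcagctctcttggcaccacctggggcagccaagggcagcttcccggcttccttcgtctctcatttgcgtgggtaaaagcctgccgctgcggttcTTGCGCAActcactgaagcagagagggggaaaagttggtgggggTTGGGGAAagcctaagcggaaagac
Ptges: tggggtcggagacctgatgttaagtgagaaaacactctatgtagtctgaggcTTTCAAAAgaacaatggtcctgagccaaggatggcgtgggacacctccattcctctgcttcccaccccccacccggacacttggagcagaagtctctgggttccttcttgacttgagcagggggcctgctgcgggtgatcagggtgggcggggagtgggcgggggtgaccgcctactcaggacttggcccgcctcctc
Tbxas1: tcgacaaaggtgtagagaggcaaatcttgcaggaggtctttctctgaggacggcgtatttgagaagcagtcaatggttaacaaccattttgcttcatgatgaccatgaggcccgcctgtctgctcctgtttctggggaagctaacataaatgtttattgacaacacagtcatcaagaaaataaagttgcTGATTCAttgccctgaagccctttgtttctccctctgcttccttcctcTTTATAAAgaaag
Alox5: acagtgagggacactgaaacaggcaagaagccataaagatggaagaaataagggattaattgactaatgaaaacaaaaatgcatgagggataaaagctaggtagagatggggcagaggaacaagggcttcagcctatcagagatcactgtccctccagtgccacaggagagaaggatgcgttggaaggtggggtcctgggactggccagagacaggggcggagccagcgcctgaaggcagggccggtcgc

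Both strands of a 300-base window, 250 bases before the start and 50 after it, were searched. The motifs were C/EBP (TTNNGNAA), CRE (TGACGTCA), the CRE core (TGACG, contained in the CRE), AP-1 (TGANTCA), the E-box (CACGTG), the TATA box (TATAAA) and the NF-kB consensus. Ptgs2 held C/EBP matches starting at -69 and -25, and a CRE core and an E-box just after its start, outside the stretch printed. Ptges held 1 C/EBP match, at -198. Tbxas1 held an AP-1 match at -61 and a TATA box on each strand at -13 and -11. The Alox5 window held none of the searched letters. Of 32851 promoters, 40.7% held a C/EBP match, 20.8% a CRE core, 13.6% a TATA box, 7.81% an AP-1 match, 7.15% an E-box, 4.51% an NF-kB match and 1.79% a full CRE, so the C/EBP matches are common ones. A match describes the letters alone.

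Across the 12 arrays, Ptgs2 correlated with Ptges at r = 0.88 and with Alox5, Tbxas1 and Alox5ap at -0.98, -0.97 and -0.96. Among themselves Alox5, Alox5ap and Tbxas1 correlated at 0.95 to 0.96. These values describe 4 groups of 3 arrays that share treatments, and carry no test. Among 8270 other detected genes, the closest in pattern to Ptgs2 were Malt1 (r = 0.987), Tmem266 (r = 0.984) and Hbegf (r = 0.984). The closest to Ptges were Ppp1r15a (r = 0.989), Ptpn2 (r = 0.984) and Lad1 (r = 0.984). For Ptgs2 the likeness rests on arrays of which only those of KLA detected it.

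Around these members, 74 other genes of the pathway were listed, 67 had a probe and 30 were detected throughout at least 1 group. KLA called 7 of the 67 higher (10.4%) and 11 lower (16.4%), beside 9.70% and 11.6% of all genes, so the count of higher genes was near that background (limma, adjusted over all probes). KLA plus hBD3 against KLA called 10 higher (14.9%) and 2 lower (2.99%), beside 5.85% and 4.97% of all genes. KLA plus hBD3 against untreated called 4 higher (5.97%) and 6 lower (8.96%), beside 3.11% and 3.44%. The interaction called 4 higher and 0 lower, beside 2.81% and 2.69% of all genes. Of the 67, 13 had an unadjusted limma p under 0.05, beside 3307 of all 19057 genes. For hBD3 alone limma called 0 of the 67, with 9 at an unadjusted p under 0.05, beside 1842 of all 19057 genes. The median log2 change over the 67 was 0.019 for KLA and 0.023 for KLA plus hBD3 against KLA, beside 0.016 and -0.0041 over all 19057 genes.

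Among 20 measured genes of arachidonate release, KLA called 1 higher and 3 lower, where 9.70% of all genes were called higher and 11.6% lower. In these short lists 1 gene moves the share by several percent. Pla2g15, a lysosomal phospholipase A2, averaged 11.95 ± 0.19 with KLA plus hBD3, 10.64 ± 0.11 with KLA, 12.87 ± 0.11 with hBD3 and 12.70 ± 0.26 in untreated cells (SD, n = 3 each). It was 4.16-fold lower with KLA (limma adjusted p = 6.97e-07), and KLA plus hBD3 was 2.48-fold above KLA and still 1.68-fold below untreated. Daglb, a diacylglycerol lipase, followed the same course, 3.52-fold lower with KLA (adjusted p = 7.20e-07) and 2.08-fold higher in KLA plus hBD3 than in KLA. Mgll, the monoacylglycerol lipase, was 1.59-fold lower with KLA and not called in KLA plus hBD3 against KLA (log2 change 0.21, adjusted p = 0.660). The 1 gene called higher was Pla2g4e, named after its value was seen, which neither KLA nor untreated arrays detected.

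Of 7 measured prostanoid synthases, KLA called 0 higher and 3 lower, beside 9.70% and 11.6% of all genes. At an unadjusted limma p under 0.05 were 4 of the 7, beside 5988 of all 19057 genes. The fourth was Ptges2, a membrane-associated prostaglandin E synthase named after its value was seen, at a log2 change of 0.38 (limma adjusted p = 0.192). Hpgds, the hematopoietic prostaglandin D synthase, was 2.32-fold lower with KLA (limma adjusted p = 0.00778). Cbr1 and Prxl2b, both linked to prostaglandin F synthesis, were 1.61-fold and 1.53-fold lower with KLA, and each was higher in KLA plus hBD3 than in KLA. Ptges3, the cytosolic prostaglandin E synthase and co-chaperone, was 2.16-fold lower in KLA plus hBD3 than in untreated cells (adjusted p = 0.0396), with KLA at a log2 change of -0.52 (adjusted p = 0.285). KLA thus called 0 of these genes higher, unlike Ptges.

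In the leukotriene and lipoxygenase list, with 13 genes measured, KLA called Cotl1 lower and Alox12 higher, beside 11.6% of all genes lower and 9.70% higher. Cotl1, a partner of 5-lipoxygenase and of actin, was 2.56-fold lower with KLA (limma adjusted p = 1.61e-05) and 1.76-fold higher in KLA plus hBD3 than in KLA. Alox12, named after its value was seen, was undetected in both KLA and untreated arrays.

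Of 11 genes of inactivation and transport, KLA called 1 higher (9.09%, near the 9.70% of all genes) and 3 lower (27.3%, beside 11.6%). Abcc1, which exports leukotriene C4, was 1.95-fold higher with KLA (limma adjusted p = 0.00141). Cbr3, a carbonyl reductase, was 2.49-fold lower with KLA and 1.91-fold higher in KLA plus hBD3 than in KLA. Ephx1, the microsomal epoxide hydrolase, was 1.65-fold lower with KLA and 1.52-fold higher in KLA plus hBD3 than in KLA. Hpgd encodes the dehydrogenase that inactivates prostaglandin E2. It was detected in no KLA plus hBD3 or KLA array and in every hBD3 and untreated array, with means of 5.75 ± 0.06, 5.65 ± 0.04, 6.69 ± 0.16 and 6.24 ± 0.12 in that order (SD, n = 3 each). Hpgd was lower in both KLA plus hBD3 (adjusted p = 0.0102) and KLA (adjusted p = 0.000617) than in untreated cells. As neither KLA plus hBD3 nor KLA arrays detected Hpgd, no difference is read between them.

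Of 11 measured receptor genes, KLA called 2 higher (18.2%) and 0 lower, beside 9.70% and 11.6% of all genes. Fpr2, a formyl peptide receptor that also binds lipoxin A4, was 4.97-fold higher with KLA (limma adjusted p = 1.49e-06) and 3.47-fold higher with KLA plus hBD3 than in untreated cells. Ptgir, the prostacyclin receptor, was 2.62-fold higher with KLA, and 1.41-fold lower in KLA plus hBD3 than in KLA (adjusted p = 0.0140). Cysltr1, a cysteinyl leukotriene receptor, averaged 9.18 ± 0.12 in KLA plus hBD3, 8.45 ± 0.21 in KLA, 8.19 ± 0.21 in hBD3 and 8.31 ± 0.27 in untreated arrays (SD, n = 3 each). Its KLA plus hBD3 arrays lay above all others, 1.83-fold over untreated (adjusted p = 0.00668) and 1.66-fold over KLA (adjusted p = 0.00960), while its interaction just missed the threshold (0.86 ± 0.21, adjusted p = 0.0510).

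Of 5 measured genes that return arachidonate to phospholipids, KLA called 2 higher and 1 lower, beside 9.70% and 11.6% of all genes. Acsl5 and Acsl4, both acyl-CoA synthetases, were 1.94-fold and 1.77-fold higher with KLA. In KLA plus hBD3, Acsl5 was 1.71-fold lower than in KLA (limma adjusted p = 0.00290), and Acsl4 gave a log2 change of -0.19 (adjusted p = 0.718). Acsl3 was 1.26-fold lower with KLA. The interaction was called for Pla2g15, Daglb, Cbr3 and Lpcat3, all higher, the last an acyltransferase named after its value was seen.

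**Figure D4:**
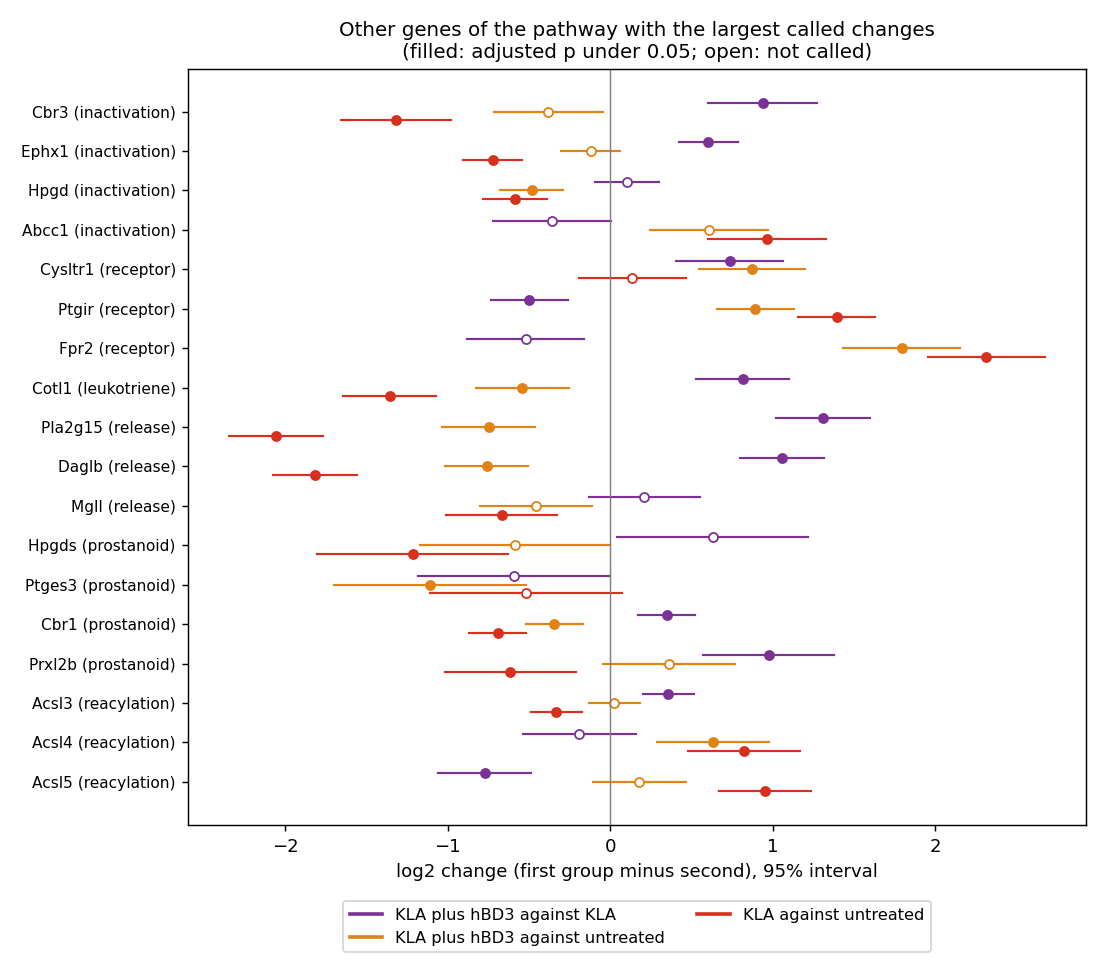
Log2 change with its 95% interval (horizontal axis, first group minus second) for the other pathway genes with the largest called changes, at most 4 per list, in 3 comparisons. Filled points passed an adjusted p of 0.05. Pla2g15, Daglb, Cotl1 and Cbr3 were lower with KLA and higher in KLA plus hBD3 than in KLA. Pla2g15, Daglb, Cotl1, Fpr2 and Hpgd were among the genes also called in their KLA direction in KLA plus hBD3 against untreated.

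Stromal cells also make prostaglandin E2 through Ptgs2 and Ptges, so their markers were read beside these genes. Of 11 stromal markers, 2 were detected in every KLA plus hBD3 array, 3 in every KLA array, 4 in every hBD3 array and 3 in every untreated array. Their mean log2 signal spanned 6.20 to 6.34 in KLA plus hBD3 arrays, 6.39 to 6.47 in KLA arrays, 6.22 to 7.88 in hBD3 arrays and 6.18 to 6.45 in untreated arrays. The highest value belonged to hBD3 replicate 3 alone, as hBD3 replicates 1 and 2 were at 6.53 and 6.22. KLA arrays were higher than KLA plus hBD3 arrays in this list. The 11 neutrophil markers averaged 6.00 to 6.11 in KLA plus hBD3, 6.14 to 6.35 in KLA, 5.97 to 5.98 in hBD3 and 5.94 to 5.97 in untreated arrays, with 2, 2, 1 and 1 of them detected in every array of the group. The 8 dendritic cell markers averaged 5.85 to 5.94 in KLA plus hBD3, 6.06 to 6.25 in KLA, 5.92 to 5.98 in hBD3 and 5.86 to 5.97 in untreated arrays, with 1 detected in every array of each group. Like Ptgs2 and Ptges, both lists lay above all other arrays under KLA. The part of these 3 lists in the Ptgs2 and Ptges results was not tested.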

How the data were processed

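The authors exported probe intensity on a linear scale, each with a detection p-value set by negative control beads, to a deposited table, and the authors also deposited quantile-normalized intensity values of the 12 arrays. Quantile-normalized here, each of the 12 raw columns equalled 1 deposited column for 100% of probes within 0.1%, and the group matched in all 12. The submitters' notes name limma, with its version not given in the sources used here. Log2 of the deposited normalized intensity of 45281 probes was fitted with limma 3.58.1 in R 4.3.3 as group means over all 12 arrays (8 residual and 3.66 prior degrees of freedom). Tests were two-sided, with Benjamini-Hochberg adjustment across the 45281 probes. The number of arrays limits precision.

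The annotation gave 34885 probes 1 gene, 18 several and 10378 none. The wider lists name up to 4 genes each, by the largest change from untreated in either KLA comparison among detected genes, and the 3 genes closest to Ptgs2 and to Ptges by Pearson r. Members and lists were chosen with earlier results of these data known. A change from a group with no detected array is given as a lower bound, each array taking its lowest detected signal where that was higher. Deviations from the group means of same-numbered arrays correlated at 0.273 to 0.71 in all 9 pairs among KLA, hBD3 and untreated. Replicates 1 and 2 also correlated across numbers, as KLA replicate 2 with hBD3 replicate 1 at 0.44. The same-numbered values of KLA with hBD3 were higher, at 0.59 for replicate 1 and 0.56 for replicate 2. Replicate 3 ran opposite to them, as KLA replicate 1 with untreated replicate 3 at -0.62. In these groups the numbers thus set replicate 3 apart, and separate replicates 1 and 2 less strongly. In each pair of these groups, replicates 1 and 2 correlated more with the same number than across numbers. The 9 same-numbered pairs with a KLA plus hBD3 array correlated at -0.066 to 0.281. Of these 3 passed 0.1, all of replicate 1, with KLA at 0.25, untreated at 0.13 and hBD3 at 0.28. The numbers thus do not pair replicates 2 and 3 of that group. The main fit used no block, and the replicate block was run as an alternative. The fit was tested on simulated data, with no outcome given here. Alternatives covered normalization, background correction, dim probes, probe choice, spread, replicate block, the KLA titles and left-out arrays.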

Additional observations from a re-analysis of the deposited data

Results flagged for a closer look

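The effect of hBD3 differed between cells with and without KLA for 4 members, by the interaction term of the limma model. The difference in log2 effect was -1.28 for Ptgs2 and -2.11 for Ptges, where hBD3 lowered the signal in cells with KLA. It was 1.65 for Alox5ap and 1.09 for Tbxas1, where hBD3 raised the signal in cells with KLA. For Ptgs2 and Tbxas1 only the brightest probe was called in this term. In cells without KLA, hBD3 alone was not called for any of the 4. With median centring the Alox5ap and Tbxas1 differences were larger, at 1.79 and 1.40, but were not called (adjusted p = 0.0593 and 0.0696).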

How the results depend on the processing

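Of 890 alternative values for single members, 874 kept their call or the lack of one, 11 gained a call and 5 lost one, and 0 called values changed sign. Many of these values could hardly change, so the tally does not measure how firm a call is. Leaving out a KLA plus hBD3 array, for one, keeps the KLA change itself (1.44 for Ptgs2). For Ltc4s and Pla2g4a the mean of all probes is the single probe, and Pla2g4a and Ptger4 were never detected. The 5 members called in KLA against untreated and in KLA plus hBD3 against KLA were called under each alternative run. Median centring moved the median change of detected probes to -0.52 for KLA and -0.49 for KLA plus hBD3 against untreated, from -0.063 and -0.016, and the share of called probes that were higher to 15% and 5.23%, from 46.1% and 44.7%. With it, 3 members were called in KLA plus hBD3 against untreated, all lower (Ptger2 -0.56, Alox5 -0.46, Tbxas1 -0.90), in place of Ptges, and 2 in the interaction. It also called Ptger2 (-0.60) and Ltc4s (-0.43) lower with KLA. Without the replicate 3 arrays of KLA, hBD3 and untreated, 2 members were called in KLA plus hBD3 against untreated, Tbxas1 (-0.38, adjusted p = 0.0313) beside Ptges. The Alox5 interaction was called with normexp background correction (1.08), with only detected probes, without KLA replicate 2 (0.74) and with the replicate block. The replicate number as a block (replicate block) called 5, 1, 5, 0 and 5 members in KLA against untreated, KLA plus hBD3 against untreated, KLA plus hBD3 against KLA, hBD3 and the interaction, and 3065 probes in place of 1986, 15 in place of 2 and 2307 in place of 1542 in the second, the fourth and the fifth. It changed no other call of a member. With the KLA group cut to replicate 1, a setting whose spread comes from the other groups, KLA changes were 1.28 for Ptgs2, 3.64 for Ptges, -0.81 for Alox5, -2.02 for Alox5ap and -1.12 for Tbxas1. The mean of all probes gave smaller KLA changes for Ptgs2 (0.74), Alox5 (-0.45) and Tbxas1 (-0.66), and normexp larger ones for Ptgs2 (2.39) and Alox5 (-1.47). The methods of the study name 2 BeadChips for the 6 h arrays, but the files do not say which array lay on which. A BeadChip block was therefore not run. Array medians before normalization spanned 49.75 to 57.57 in arrays with KLA and 59.28 to 64.36 in arrays without it. If the BeadChips followed this split, their effect could not be told apart from that of KLA. Signals near background limit Pla2g4a, Ptger4, Ltc4s, Ptger2 and Alox5. The causes of these differences were not tested.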
